A study of Mus musculus with 15 samples.

Results

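MicroRNA genes make up 300 of the 19938 genes measured on the array in mouse thymus. They were taken from the platform's gene annotation as every gene whose single symbol begins with Mir or Mirlet followed by a digit, and a gene with several probe sets was represented by the one with the highest mean. Of the 300 symbols, 296 are annotated as microRNA genes by RefSeq, and the others (Mir17hg, Mir99ahg, Mir100hg and Mir670hg) are longer transcripts that carry microRNAs. The array was Affymetrix Mouse Gene 1.0 ST, hybridised with cDNA of total RNA, and its values are on a log2 scale. Its probes do not separate the long primary transcript, the hairpin and the short mature microRNA, so a value below is a gene's array signal and not the amount of mature microRNA.

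The mice were 5-week-old females, with 1 array for each mouse. NOD.LCMV mice received gp33 (n = 3) or a control peptide that binds the class I molecule Db (n = 3), and NOD.Ln82-LCMV mice received gp33 (n = 5) or the same control peptide (n = 4). Each dose was 0.5 µg into a vein, and the whole thymus was taken 2 h later. Both strains carry LCMV in their name, which in published use stands for a transgenic T-cell receptor that sees gp33 on Db, so all 4 groups share it. The title of the series names Nfkbid, an atypical inhibitor of the NF-κB family, as a gene of the diabetes locus Idd7 on chromosome 7, and Ln82 is taken here to mark a congenic interval at that locus. The labels themselves describe neither element, and they give no batch, so strain and any batch that follows it cannot be told apart. The study asked how autoreactive CD8 T cells are lost in the thymus of the NOD strain.

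MicroRNAs are short RNAs that pair with messenger RNAs through a seed, bases 2 to 8 from the 5′ end, and lower the output of those messages. They are cut from a primary transcript by Drosha with Dgcr8, exported by Xpo5, trimmed by Dicer1 and loaded into Argonaute proteins. In the T-cell lineage, miR-155 is known as a transcript induced by antigen receptor signalling and NF-κB, the miR-17 cluster as a promoter of proliferation and survival, and miR-181a as a regulator of how strongly a thymocyte responds to its receptor.

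The mature sequences below belong to the genes on which the results turn, from RefSeq (GRCm38.p6), written 5′ to 3′ with the seed in capitals. They are shown so that genes which share a seed can be seen next to each other: miR-17 and miR-20a, both miR-19 forms, the miR-181 forms, miR-15b with miR-16, and the let-7 forms with miR-98. A total of 258 of the 300 genes matched a RefSeq hairpin, and their mature forms are counted under seeds further on.
miR-155-5p: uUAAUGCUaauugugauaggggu
miR-17-5p: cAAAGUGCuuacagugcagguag
miR-20a-5p: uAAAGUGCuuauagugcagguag
miR-18a-5p: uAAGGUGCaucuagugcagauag
miR-19a-3p: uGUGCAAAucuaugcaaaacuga
miR-19b-3p: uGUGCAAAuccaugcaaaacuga
miR-142a-3p: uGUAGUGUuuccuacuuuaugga
miR-181a-5p: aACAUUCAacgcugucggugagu
miR-181b-5p: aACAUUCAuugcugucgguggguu
miR-15b-5p: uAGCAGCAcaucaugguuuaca
miR-16-5p: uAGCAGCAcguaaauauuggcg
let-7d-5p: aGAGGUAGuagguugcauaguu
let-7f-5p: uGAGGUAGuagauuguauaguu
miR-98-5p: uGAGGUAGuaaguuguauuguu
miR-30e-5p: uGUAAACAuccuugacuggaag
miR-221-3p: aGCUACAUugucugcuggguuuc

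The hairpin of Mir155 lies at chr16:84714140-84714204 on the plus strand, inside Mir155hg, which had no probe set of its own among the genes tested. It is printed to show where in the hairpin the mature 5′ form, in capitals, lies.
Mir155 hairpin: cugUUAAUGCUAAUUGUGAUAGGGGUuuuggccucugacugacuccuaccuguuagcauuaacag
The hairpins of Mir17, Mir18, Mir19a, Mir20a and Mir19b-1 share a stretch of 721 bases at chr14:115043671-115044391, plus strand. miR-16-5p is written identically in Mir16-1 (chr14:61631936-61631957, minus strand) and Mir16-2 (chr3:69009918-69009939, plus strand), and miR-181b-5p in Mir181b-1 (chr1:137966650-137966673, plus strand) and Mir181b-2 (chr2:38853845-38853868, plus strand). Probes that lie in such shared bases cannot tell the genes apart. The positions of the probes were not examined, so values of these near-identical genes are uncertain to that extent.

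Array medians lay between 7.59 and 7.67, and arrays of a group correlated at 0.9904 or more. The medians followed strain: with the Db peptide they were 7.66 to 7.67 in NOD.LCMV and 7.59 to 7.62 in NOD.Ln82-LCMV. With gp33 they were 7.63 to 7.64 and 7.59 to 7.63. The microRNA genes gave low signals: their mean over all arrays was between 4.22 and 10.99 with a median of 5.91, against a median of 7.90 over all genes. Of the 300, 201 (67.0%) were below 6.92, the limit under which the dimmest 33% of all genes lie. The array gives no background reading to set against them, and the compression of their differences is unknown. Mir122, a liver microRNA gene taken as a level that thymus should lack, read between 5.66 and 6.13 on the 15 arrays. All p-values are from limma, two-sided, adjusted by Benjamini-Hochberg over the 19938 genes, and a gene was called at an adjusted p under 0.05. They weigh a group difference against the spread between mice within the 4 groups, moderated over all genes. The number of arrays limits their precision. Nfkbid was 2.13 ± 0.11 log2 higher with gp33 in NOD.LCMV (SE, limma adjusted p = 4.05e-09) and 0.43 ± 0.09 in NOD.Ln82-LCMV (adjusted p = 0.303).

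With gp33, NOD.LCMV thymus had 21 microRNA genes higher and 1 lower than with the Db peptide, and 278 were not called. The 6 largest rises were those of Mir155, Mir18, Mir19a, Mir19b-1, Mir142 and Mir181a-1, and all 5 hairpins of the Mir17 cluster measured here were among the 21. Over all 19938 genes, 7.29% were called higher and 12.5% lower in this comparison (19.8% in all), against 7.0% and 0.333% of the microRNA genes. The median difference of the 300 was 0.00 log2 and that of all genes -0.03. Of the 22 called, 12 had a mean below the dim limit.

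Mir155 had the largest rise. It read 9.25, 8.85 and 8.86 in NOD.LCMV thymus with gp33, against 6.62, 6.69 and 6.77 with the Db peptide. In NOD.Ln82-LCMV thymus it read 6.49, 6.61, 6.42, 6.34 and 6.93 with gp33, against 6.52, 6.55, 6.53 and 6.64 with the Db peptide. The 3 NOD.LCMV mice given gp33 stood apart from the other 12 animals, and the NOD.Ln82-LCMV groups overlapped. The rise in NOD.LCMV was 2.29 ± 0.13 log2, or 4.90-fold (limma adjusted p = 6.85e-09), and the 95% interval of the fold ran from 4.06 to 5.91. In NOD.Ln82-LCMV the difference was 0.00 with an interval of -0.22 to 0.22 log2, and the responses differed by 2.30 ± 0.16 log2 (limma adjusted p = 3.65e-07). In whole tissue, a larger number of cells of a type and more RNA per cell cannot be told apart, here and in what follows.

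**Figure D1:**
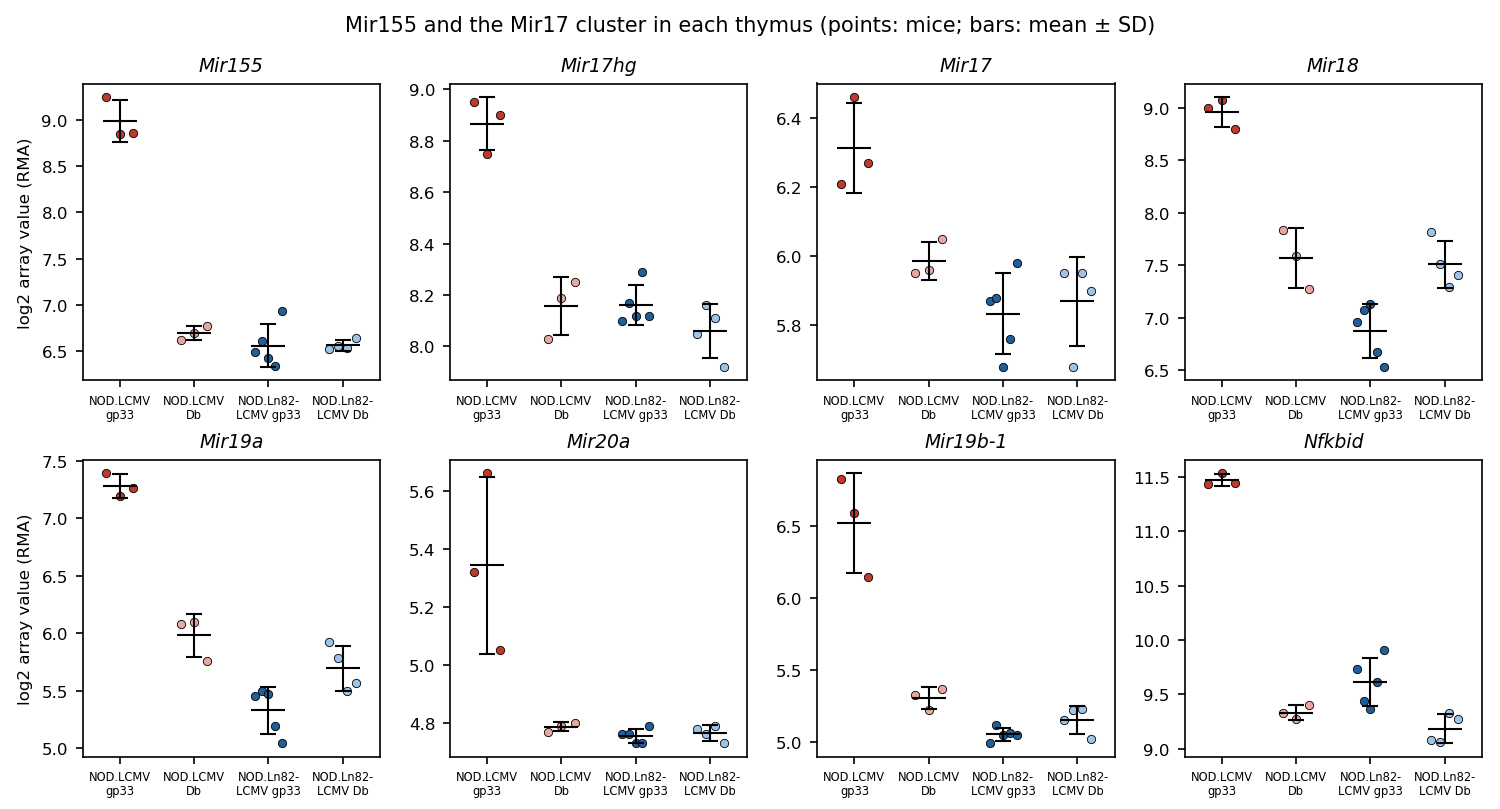
Log2 array value of Mir155, the Mir17 cluster genes and, for orientation, Nfkbid in each of the 15 thymuses, by strain and peptide, with bars for the mean ± SD. For each gene shown, the 3 NOD.LCMV thymuses with gp33 lie above every other thymus.

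Other genes known as targets of receptor or NF-κB signalling gave small differences or none that was called, several of them at low signal. Of 13 listed, 9 were measured, and 2 of the 9 were called in NOD.LCMV with gp33, Mir155 and Mir221. The 9 include Mir9-1 and Mir9-3, which are also listed below among brain genes that thymus should lack. Mir221, which acts on cell cycle inhibitors, read 5.87, 5.91 and 5.75 with gp33, against 5.63, 5.64 and 5.66 with the Db peptide. These groups did not overlap, and the rise was 0.20 ± 0.05 log2 (limma adjusted p = 0.00562). Mir222, its neighbour on chromosome X, was 0.06 ± 0.08 log2 higher (adjusted p = 0.736). Mir146, the gene of miR-146a and a feedback inhibitor in NF-κB signalling, read 4.75, 4.63 and 4.64 with gp33, against 4.58, 4.64 and 4.62 with the Db peptide. It read between 4.58 and 4.75 on the 15 arrays and was called in no comparison. Mir122, the gene that thymus should lack, read between 5.66 and 6.13. Mir146 lay below that on every array, and Mir221 and Mir222 read at most 5.91 and 5.87. At such signals, no response and a response too weak to read cannot be told apart. Mir132 and Mir212, neighbours known to respond to CREB, differed by 0.00 ± 0.10 and 0.14 ± 0.10 log2, and Mir31 by 0.14 ± 0.09, none of them called.

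All 5 measured hairpins of the Mir17 cluster rose with gp33 in NOD.LCMV, as did Mir17hg, their host transcript. Mir92-1 was not measured here, since its probe set also carries the symbol Mir17hg and was left out. The host read 8.95, 8.75 and 8.90 with gp33, against 8.03, 8.19 and 8.25 with the Db peptide, a rise of 0.71 ± 0.08 log2 (1.64-fold, limma adjusted p = 7.01e-06). Mir18 read 9.0, 9.08 and 8.80 with gp33, against 7.84, 7.59 and 7.27. Mir19a read 7.39, 7.19 and 7.26 with gp33, against 6.08, 6.10 and 5.76. For each of these genes, every NOD.LCMV mouse given gp33 was above every mouse given the Db peptide. The rise was 1.39 ± 0.17 log2 for Mir18 (2.63-fold, adjusted p = 3.05e-05) and 1.30 ± 0.13 for Mir19a (2.46-fold, adjusted p = 4.61e-06).

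The remaining measured hairpins of the cluster are dim on this array. Mir19b-1 read 6.83, 6.59 and 6.15 with gp33, against 5.33, 5.22 and 5.37 with the Db peptide, and rose by 1.22 ± 0.12 log2 (limma adjusted p = 2.53e-06). Mir20a read 5.32, 5.66 and 5.05 with gp33, against 4.77, 4.79 and 4.80, and rose by 0.56 ± 0.10 (adjusted p = 0.000781). Mir17 read 6.21, 6.46 and 6.27 with gp33, against 5.95, 5.96 and 6.05, and rose by 0.33 ± 0.09 (adjusted p = 0.0136). The groups did not overlap for any of these genes. The call of Mir17 was lost without Db replicate 1 or without gp33 replicate 2 of NOD.LCMV, with differences from 0.25 to 0.38 over all arrays left out in turn. The 5 genes thus share a direction and not a size, and since their baselines differ, the sizes cannot be ranked as changes in RNA.

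In NOD.Ln82-LCMV the same 5 hairpins were not called. Mir18 read 6.96, 7.07, 7.13, 6.67 and 6.53 with gp33, against 7.82, 7.51, 7.29 and 7.41 with the Db peptide, without overlap, a difference of -0.64 ± 0.14 log2 (limma adjusted p = 0.327). Mir19a differed by -0.36 ± 0.11 (adjusted p = 0.651), and the other hairpins by -0.10 to -0.01. The responses of the strains differed for Mir18 by 2.03 ± 0.22, for Mir19a by 1.66 ± 0.17, for Mir19b-1 by 1.32 ± 0.15 and for Mir20a by 0.57 ± 0.13, all called, and for Mir17 by 0.36 ± 0.11 (adjusted p = 0.0591). Paralogous copies of the cluster were not called in NOD.LCMV. Mir106a and Mir19b-2 among them lay below the dim limit, where no response and a weak one cannot be told apart. None of 5 measured genes of the copy on chromosome X (Mir106a, Mir20b, Mir19b-2, Mir92-2 and Mir363) and none of the trio Mir106b, Mir93 and Mir25 was called with gp33. Of 6 genes with the seed of miR-17, AAAGUGC, 2 rose, and of 3 with the seed of miR-19, GUGCAAA, 2 rose.

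Mir142 is expressed throughout blood-forming cells. It read 9.45, 9.11 and 8.53 in NOD.LCMV with gp33, against 7.74, 8.29 and 7.55 with the Db peptide. In NOD.Ln82-LCMV it read 6.39, 6.15, 6.14, 6.22 and 6.27 with gp33, against 8.20, 7.14, 6.73 and 6.77 with the Db peptide. The groups of each strain did not overlap, and they were ordered in opposite ways. The rise in NOD.LCMV was 1.17 ± 0.31 log2 (2.25-fold, limma adjusted p = 0.0146), while the difference in NOD.Ln82-LCMV was -0.98 ± 0.26 (adjusted p = 0.557). The responses differed by 2.15 ± 0.41 (adjusted p = 0.00329). Db replicate 1 of NOD.Ln82-LCMV stood above its group, and without it that strain's difference was -0.65. The call in NOD.LCMV was lost without Db replicate 1 or 3 or without gp33 replicate 1 or 2 of that strain, with differences from 0.96 to 1.42.

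Among the miR-181 genes, Mir181a-1 rose in NOD.LCMV and Mir181b-1, its neighbour on chromosome 1, was not called. Mir181a-1 read 9.11, 9.04 and 8.73 in NOD.LCMV with gp33, against 7.53, 8.65 and 7.53 with the Db peptide, and 6.78, 6.52, 6.83, 6.42 and 5.96 in NOD.Ln82-LCMV with gp33, against 7.68, 7.35, 6.90 and 6.81. Its rise in NOD.LCMV was 1.06 ± 0.29 log2 (limma adjusted p = 0.0177), lost without Db replicate 1 or 3 or gp33 replicate 1 or 2 of that strain (0.87 to 1.43). The groups of NOD.LCMV did not overlap, though Db replicate 2 lay close to the mice given gp33, and those of NOD.Ln82-LCMV overlapped slightly. Mir181b-1, among the 10 brightest microRNA genes, read 11.63, 11.44 and 11.29 with gp33, against 11.20, 11.35 and 11.06 with the Db peptide. Those overlap, and the difference of 0.25 ± 0.16 was not called (adjusted p = 0.356). The difference between responses was called for Mir181a-1 (1.74 ± 0.38, adjusted p = 0.00874) and for Mir181b-1 (0.82 ± 0.21, adjusted p = 0.0222), the second of which was lost without Db replicate 3 or gp33 replicate 1 of NOD.LCMV. Mir181b-2, on chromosome 2, was -0.48 ± 0.20 in NOD.LCMV and -0.81 ± 0.16 in NOD.Ln82-LCMV, neither called. Of 19 listed thymocyte and T-cell microRNA genes, 17 were measured, and Mir142 and Mir181a-1 were the 2 that rose in NOD.LCMV. Mir150, which restrains Myb in lymphocytes, differed by 0.02 ± 0.09.

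Within the let-7 family, whose members favour differentiation and are held back by Lin28 proteins, 3 of 10 measured genes rose in NOD.LCMV with gp33. Mir98 read 6.24, 6.20 and 5.90 with gp33, against 5.64, 5.85 and 5.64 with the Db peptide, and rose by 0.40 ± 0.09 log2 (limma adjusted p = 0.00358). Mirlet7d read 7.47, 7.62 and 7.55 with gp33, against 7.0, 7.36 and 6.98, and rose by 0.43 ± 0.11 (adjusted p = 0.0133). Mirlet7f-1, which lies in the same cluster on chromosome 13 as Mirlet7d, read 5.87, 5.83 and 5.60 with gp33, against 5.50, 5.51 and 5.57, and rose by 0.24 ± 0.07 (adjusted p = 0.0283). None of the 3 overlapped between peptides in NOD.LCMV. The call of Mirlet7d was lost without Db replicate 1 or 3 or gp33 replicate 2, and that of Mirlet7f-1 without Db replicate 1 or 2 or gp33 replicate 1 or 2. Counted by seed, 3 of 9 genes with GAGGUAG rose.

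In the Mir15 and Mir16 family, which lowers Bcl2 and cell cycle genes, 1 of 6 measured genes rose in NOD.LCMV. Mir16-1 read 7.19, 7.32 and 7.19 with gp33, against 6.67, 6.93 and 6.76 with the Db peptide, and rose by 0.45 ± 0.07 log2 (limma adjusted p = 0.000363). Mir15b read 8.27, 8.30 and 8.29 with gp33, against 7.53, 7.90 and 7.67, without overlap, and its difference of 0.59 ± 0.21 was not called (adjusted p = 0.0665). In NOD.Ln82-LCMV, Mir15b read 6.28, 6.19, 6.11, 6.13 and 5.53 with gp33, against 7.38, 7.0, 6.56 and 6.44, a difference of -0.80 ± 0.17 (adjusted p = 0.303). The groups did not overlap in either strain, in opposite order, and the responses differed by 1.38 ± 0.27 (adjusted p = 0.00451). Mir30e rose by 0.31 ± 0.09 in NOD.LCMV (adjusted p = 0.0182), a call lost without Db replicate 1 or 3 or gp33 replicate 1. Mir30e was the 1 of 6 measured Mir30 genes that rose. Neither measured Mir29 gene, none of 3 Mir23, Mir27 and Mir24 genes and none of 3 Mir34 genes was called in NOD.LCMV with gp33.

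Mir143 and Mir145a, neighbours on chromosome 18 known from smooth muscle and fibroblasts, also rose. Of 3 measured microRNA genes listed for these cells, the other, Mir199a-1, was not called in any comparison. Mir145a read 9.11, 9.08 and 9.34 in NOD.LCMV with gp33, against 8.54, 8.65 and 7.84 with the Db peptide, and rose by 0.83 ± 0.17 log2 (limma adjusted p = 0.00263). Mir143 read 8.27, 8.45 and 8.20 with gp33, against 7.77, 7.77 and 7.91, and rose by 0.49 ± 0.10 (adjusted p = 0.00315). Neither gene overlapped between peptides. Of 4 messenger RNAs that mark smooth muscle and fibroblasts (Acta2, Myh11, Col1a1 and Pdgfrb), 0 rose and 1 fell, and the mean of the 4 was 8.90 to 8.91 with gp33, against 8.85 to 9.27 with the Db peptide. Mir200b, an epithelial microRNA gene, was the 1 called lower. It read 5.60, 5.55 and 5.39 with gp33, against 5.68, 5.72 and 5.72, and fell by 0.19 on the log2 scale (SE 0.06, adjusted p = 0.0232), a call lost without Db replicate 2 or 3 or gp33 replicate 3. Mir200b read below Mir122, the gene that thymus should lack, on every array. Of 6 measured epithelial microRNA genes Mir200b alone was called, and the median difference of the list was -0.03 log2. Of 4 epithelial messenger RNAs, Foxn1 fell and none rose.

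Mir6516, among the 10 brightest, rose by 0.30 ± 0.07 log2 (limma adjusted p = 0.00923), lost without Db replicate 1 or gp33 replicate 2 of NOD.LCMV. Mir425, Mir130b and Mir301b complete the 21 rises and were picked for mention after their values were seen, with rises of 0.41 ± 0.07, 0.34 ± 0.08 and 0.31 ± 0.10. The call of Mir301b was lost without Db replicate 1 or 2 or gp33 replicate 1 or 2 of NOD.LCMV, and that of Mir130b without Db replicate 1. By position, 7 of 13 microRNA genes on chromosome 14 rose, where 7.29% of all genes were called higher. Of the 7, 6 were the measured Mir17 cluster with Mir17hg and the other was Mir16-1. On chromosome 12, which holds 47 of the genes, 0 were called, where 19.8% of all genes were.

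Several other quantities moved with peptide in NOD.LCMV. Among 9 thymocyte genes (Cd3e, Cd4, Cd8a, Cd8b1, Rag1, Rag2, Dntt, Ptcra and Themis), 5 fell and 0 rose, and their mean was 10.93 to 11.56 with gp33, against 11.45 to 11.72 with the Db peptide. Among 4 myeloid genes, S100a8 and S100a9 rose, and the mean of the list was 8.93 to 9.32 with gp33, against 8.51 to 8.74. Among 4 endothelial genes, Pecam1 and Egfl7 fell, and the mean of the list was 8.57 to 8.63 with gp33, against 8.68 to 9.07, without overlap. Small nucleolar RNA genes, which also give short structured RNAs, had 16 of 53 called higher and 1 lower, with array means of 9.29 to 9.36 with gp33, against 9.05 to 9.16. The array mean over microRNA genes was 6.31 to 6.41 with gp33, against 6.28 to 6.35. The part of these shifts in the results above was not tested.

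With gp33 in NOD.Ln82-LCMV, 0 of the 300 microRNA genes was called by limma, where 0.00502% of all genes, a single gene, was called. At an unadjusted p under 0.05 there were 29 microRNA genes, where 5.97% of all genes passed. The peptide groups did not overlap in 14 microRNA genes, each lower with gp33, and in 0 genes higher, where 0.848% and 0.667% of all genes were so. The smallest adjusted p among the named genes was that of Mir350. It read 5.14, 5.06, 5.10, 4.93 and 4.97 with gp33, against 5.76, 5.68, 5.34 and 5.42 with the Db peptide, without overlap, a difference of -0.51 ± 0.08 log2 (limma adjusted p = 0.0717). Mir16-2 differed by -0.36 ± 0.06 and Mir30e by -0.39 ± 0.07, with an adjusted p of 0.134 for each.

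**Figure D2:**
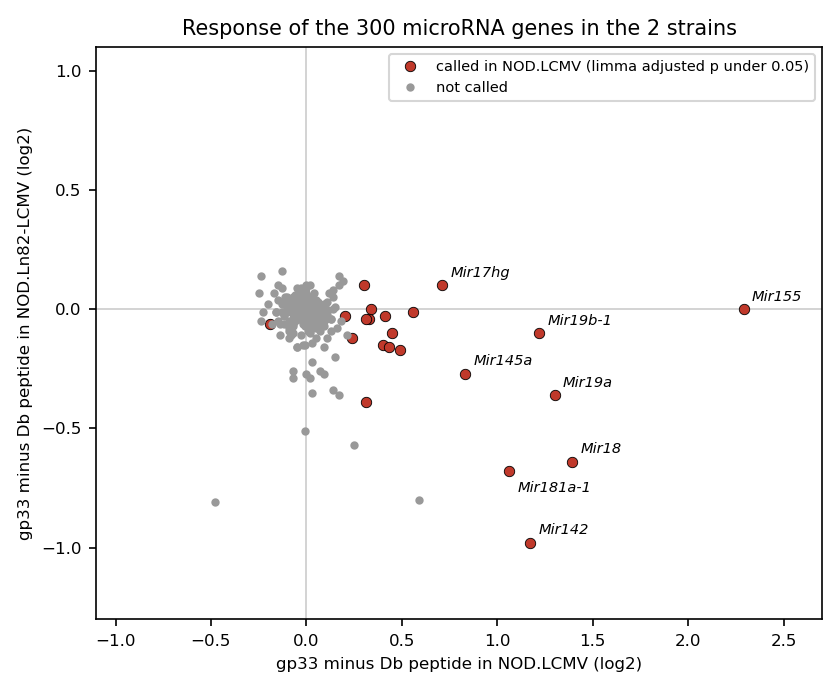
Difference between gp33 and Db peptide in NOD.LCMV (x axis, log2) and in NOD.Ln82-LCMV (y axis, log2) for the 300 microRNA genes, 1 point each, with those called in NOD.LCMV in red. Mir155 lies far right at 0.00 on the y axis, while Mir18, Mir142 and Mir181a-1 lie right of and below 0.

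The test of the difference between the responses called 22 microRNA genes, each with the greater response in NOD.LCMV and 0 the other way, where 8.73% of all genes were called (4.46% higher, 4.26% lower). The median difference was 0.01 log2 over the 300 and -0.04 over all genes. Mir155 and Mir142 had the largest differences, given above, and 11 of the 22 were dim. The arrays in this test are also those of each response, so it is not a separate set of data. The difference between responses of Mir350 was 0.50 ± 0.13 (limma adjusted p = 0.0226), with -0.01 ± 0.10 in NOD.LCMV and -0.51 ± 0.08 in NOD.Ln82-LCMV. This call was lost without Db replicate 2 or 3 or gp33 replicate 3 of NOD.LCMV. Mir16-2 likewise had a called difference of 0.53 ± 0.10 (adjusted p = 0.00339), with 0.17 ± 0.08 in NOD.LCMV and -0.36 ± 0.06 in NOD.Ln82-LCMV.

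With the Db peptide, 24 microRNA genes were higher in NOD.LCMV than in NOD.Ln82-LCMV and 0 were lower, where 4.77% of all genes were called higher and 5.54% lower (10.3% in all). The strain groups did not overlap in 42 microRNA genes, each higher in NOD.LCMV, where 10.3% of all genes were so, and in 0 genes the other way, where 9.36% of all genes were so. The median strain difference was 0.05 log2 over the 300 and 0.01 over all genes. The count depended on single arrays: it was 14 without Db replicate 2 of NOD.LCMV, 15 without Db replicate 3 of NOD.Ln82-LCMV and 31 without Db replicate 1 of NOD.Ln82-LCMV. It was 16 under a second quantile normalization and 16 with arrays centred on their medians, all higher in NOD.LCMV, and under these the median over the 300 was -0.01 and -0.02. The counts of genes without overlap were made on the deposited values alone, in which array medians were higher in NOD.LCMV.

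These strain differences were led by Mir15b, both Mir181b genes and Mir16-2. Mir16-2 read 6.29, 6.47 and 6.23 in NOD.LCMV, against 5.72, 5.69, 5.51 and 5.51 in NOD.Ln82-LCMV, 0.72 ± 0.07 log2 higher (limma adjusted p = 6.15e-05). Mir181b-2 read 8.30, 8.44 and 8.33 in NOD.LCMV, against 8.13, 7.59, 7.12 and 7.28, 0.83 ± 0.18 higher (adjusted p = 0.00974). Mir15b was 0.86 ± 0.20 higher (adjusted p = 0.0121), a call lost without Db replicate 2 of NOD.LCMV, and Mir181b-1 was 0.78 ± 0.15 higher (adjusted p = 0.00405). No strain overlapped the other in any of these genes. In the Mir15 and Mir16 family, 4 of 6 measured genes were higher, the others being Mir15a (0.46 ± 0.07, adjusted p = 0.000852) and Mir16-1 (0.30 ± 0.07, adjusted p = 0.00943, lost without Db replicate 2 of NOD.LCMV). Mir15a read 10.90, 10.87 and 10.91 in NOD.LCMV, against 10.51, 10.43, 10.43 and 10.36 in NOD.Ln82-LCMV. Mir505, on chromosome X, read 11.22, 11.30 and 11.33 in NOD.LCMV, against 10.96, 10.81, 10.77 and 10.75, 0.46 ± 0.07 higher (adjusted p = 0.00117). Mir155 and the Mir17 cluster were not called: Mir155 differed by 0.13 ± 0.12 (adjusted p = 0.599) and Mir18 by 0.06 ± 0.16 (adjusted p = 0.899).

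Chromosome 7, which carries Idd7, holds 13 of the microRNA genes. With the Db peptide 1 of them was called, where 10.3% of all genes were. It was Mir330, higher in NOD.LCMV by 0.30 ± 0.06 log2 (limma adjusted p = 0.00465), named here after its values were seen. With gp33 it was again the 1 microRNA gene of chromosome 7 that was called (0.22 ± 0.06, adjusted p = 0.00812), a call lost without gp33 replicate 1 of NOD.LCMV. Over all genes, 27% were called there.

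With gp33 in both strains, 63 microRNA genes were higher in NOD.LCMV and 3 were lower, where 10.2% of all genes were called higher and 16.8% lower (27% in all). The groups did not overlap in 60 genes higher in NOD.LCMV, against 10.6% of all genes, and in 3 genes lower, against 16.3%. The median strain difference was 0.03 log2 over the 300 and -0.02 over all genes. Cell type markers differed in the same comparison. Of 9 thymocyte genes 5 were lower in NOD.LCMV and 0 higher (list median -0.28), with list means of 10.93 to 11.56 in NOD.LCMV, against 11.45 to 11.82 in NOD.Ln82-LCMV. Of 3 B-cell genes Cd79a and Ms4a1 were lower (median -1.33), with list means of 7.09 to 7.76 in NOD.LCMV, against 8.02 to 8.80. Of 4 genes each, 2 epithelial (Krt5 and Foxn1) and 2 endothelial (Pecam1 and Egfl7) were lower, 1 of smooth muscle and fibroblasts (Pdgfrb) was lower, and 2 myeloid were higher and 2 lower. Of 2 red cell genes Alas2 was lower, and it was also lower with the Db peptide. The part of these markers in the strain difference was not tested. The arrays with gp33 are those of both responses, and the values for each gene stand side by side here. Mir142 was 2.80 ± 0.28 log2 higher (6.95-fold, limma adjusted p = 2.7e-06), with 1.17 and -0.98 as responses. Mir181a-1 was 2.46 ± 0.26 higher (adjusted p = 4.86e-06), with 1.06 and -0.68. Mir155 was 2.43 ± 0.11 higher (adjusted p = 1.04e-09), with 2.29 and 0.00, so its strain difference lay in NOD.LCMV mice given gp33. Mir15b was 2.24 ± 0.19 higher (adjusted p = 4.98e-07), with 0.59 and -0.80.

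**Figure D3:**
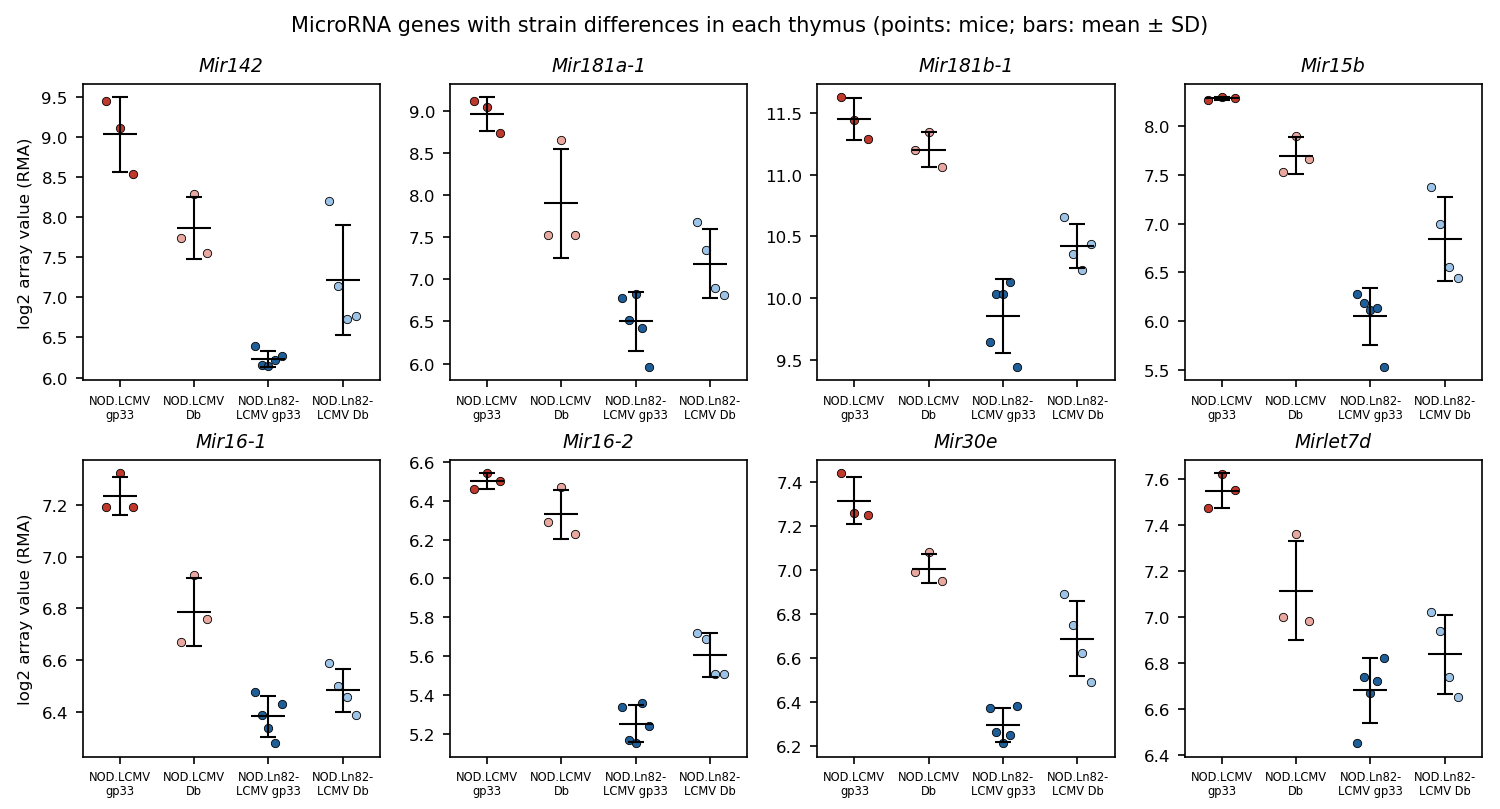
Log2 array value of 8 microRNA genes in each of the 15 thymuses, by strain and peptide, with bars for the mean ± SD. In each of the 8 genes the 5 NOD.Ln82-LCMV thymuses with gp33 lie below all NOD.LCMV thymuses, and the group means run highest in NOD.LCMV with gp33 and lowest in NOD.Ln82-LCMV with gp33.

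By family, 9 of 13 measured genes of the Mir17 clusters and their copies were higher in NOD.LCMV with gp33, 8 of 17 thymocyte and T-cell genes, 4 of 10 let-7 genes, 4 of 6 Mir15 and Mir16 genes and 3 of 6 Mir30 genes, with 0 lower in any. Mir148b read 6.85, 6.68 and 6.55 in NOD.LCMV, against 5.69, 5.75, 5.66, 5.90 and 5.53 in NOD.Ln82-LCMV, 0.99 ± 0.11 log2 higher (limma adjusted p = 6.82e-06). Mir30e was 1.02 ± 0.08 higher (adjusted p = 1.58e-07) and Mir16-2 1.25 ± 0.07 higher (adjusted p = 6.24e-09). The 3 genes lower in NOD.LCMV were Mir100hg, Mir100 and Mir692-1. Mir100hg read 6.79, 6.96 and 6.93 in NOD.LCMV, against 7.26, 7.51, 7.35, 7.31 and 7.25, a difference of -0.44 ± 0.08 (adjusted p = 0.000401). Mir100, which it carries, differed by -0.22 ± 0.05 (adjusted p = 0.0061). Mir692-1 differed by -0.21 ± 0.08 (adjusted p = 0.0488), a call lost in 11 of the 15 fits that leave out 1 array. Small nucleolar RNA genes had 20 of 53 called higher and 7 lower, and array means of 9.29 to 9.36 in NOD.LCMV, against 9.09 to 9.43 in NOD.Ln82-LCMV. The array mean over microRNA genes was 6.31 to 6.41 in NOD.LCMV, against 6.16 to 6.29 in NOD.Ln82-LCMV. Of the 66 called genes, 35 were below the dim limit. Over all comparisons together, the remaining 229 of the 300 were never called.

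Many microRNA genes lie inside a longer gene, and 124 of the 300 lie in 1 on the same strand by RefSeq. For 90 of them the host was measured, which gives 91 pairs with 72 hosts. These pairs leave out Mir17hg with the 5 measured hairpins of its cluster. Host and hairpins there moved in the same direction: all were called higher with gp33 in NOD.LCMV, and higher in NOD.LCMV between strains with gp33. With gp33 in NOD.LCMV, the microRNA gene was called in 6 of the 91 pairs, the host in 15 and both in 1. Over all genes, 19.8% were called in that comparison. The 1 pair went in opposite directions: Mir30e by 0.31 ± 0.09 log2 and Nfyc, a subunit of the CCAAT-binding factor, by -0.13 ± 0.04 (limma adjusted p = 0.0365). Between strains with gp33, both were called in 12 pairs, 2 of them in the same direction, Mir100 with Mir100hg and Mir98 with Huwe1. Mir98 was 0.74 ± 0.08 higher and Huwe1, a ubiquitin ligase, 0.33 ± 0.04. In the other 10 pairs the microRNA gene was higher in NOD.LCMV and its host lower, among them Mir148b at 0.99 ± 0.11 with Copz1, a coat protein of Golgi vesicles, at -0.40 ± 0.03. With the Db peptide the microRNA gene was called in 14 pairs, the host in 13 and both in 3, 1 of these in the same direction. Over all genes, 10.3% were called there. Smc4, a condensin subunit whose span holds Mir15b and Mir16-2, is also not among the pairs. It differed between strains with gp33 by -0.07 ± 0.05 (limma adjusted p = 0.354). The responses of hosts and of the microRNAs in them come from the same arrays, and no correlation between them was tested.

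**Figure D4:**
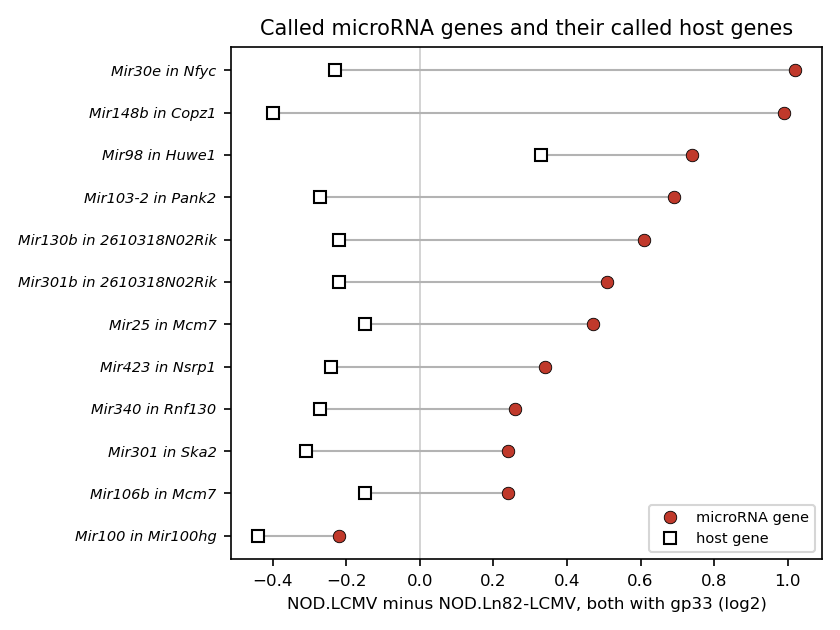
Strain difference with gp33 (NOD.LCMV minus NOD.Ln82-LCMV, log2) for the 12 pairs in which both the microRNA gene (filled circle) and its host on the same strand (open square) were called. In 10 pairs the circle lies right of 0 and the square left of it, and the pairs on the same side are Mir98 with Huwe1 and Mir100 with Mir100hg. Mir17hg and its hairpins are not among the pairs. Over all genes, 10.2% were called higher and 16.8% lower.

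Of 28 genes that make, use or destroy microRNAs, all measured, 3 rose and 8 fell in NOD.LCMV with gp33, where 7.29% of all genes were called higher and 12.5% lower. Neither the cutting enzymes nor the exporter were called: Drosha differed by 0.04 ± 0.05 log2, Dgcr8 by -0.04 ± 0.04, Xpo5 by 0.07 ± 0.05 and Dicer1 by 0.02 ± 0.05. Zc3h12a (Regnase-1), an endonuclease that degrades messages and microRNA precursors, read 9.49, 9.48 and 9.34 with gp33, against 8.59, 8.54 and 8.37 with the Db peptide, and rose by 0.94 ± 0.06 (limma adjusted p = 3.15e-08). Ago2, the Argonaute that can slice its target, read 11.86, 12.11 and 11.83 with gp33, against 11.44, 11.43 and 11.46, and rose by 0.49 ± 0.07 (adjusted p = 0.000236). The groups overlapped for neither gene. Ran, the GTPase of nuclear export, rose by 0.16 ± 0.05 (adjusted p = 0.0245).

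The falls included all 3 Tnrc6 genes, whose proteins tie Argonaute to the deadenylation of the target. Tnrc6c fell by 0.33, Tnrc6b by 0.30 and Tnrc6a by 0.19 log2, with adjusted p of 0.00121, 0.000813 and 0.00552 in limma. Prkra, a Dicer partner, read 7.52, 7.07 and 7.44 with gp33, against 7.86, 7.96 and 7.69, and fell by 0.49 (adjusted p = 0.00317). Ago4 read 5.69, 5.84 and 5.84 with gp33, against 6.20, 6.11 and 6.16, and fell by 0.37 (adjusted p = 0.000117). Both Ago4 and Prkra were without overlap. The uridylase gene Tut4 and the nuclease gene Dis3l2 each fell by 0.20, and Ddx17, a helicase of the Drosha complex, by 0.16. Differences between the responses were called for Zc3h12a (0.81 ± 0.08), Ago2 (0.50 ± 0.10), Ago4 (-0.39 ± 0.07) and Prkra (-0.48 ± 0.14). That count of 4 was 7 without Db replicate 1 of NOD.Ln82-LCMV. In NOD.Ln82-LCMV, 0 of the 28 was called by limma with gp33, and 1 had an unadjusted p under 0.05. With the Db peptide, 9 of the 28 were higher in NOD.LCMV and 0 lower, where 4.77% of all genes were called higher and 5.54% lower, among them Tnrc6b (0.40 ± 0.05), Ago3 (0.27 ± 0.06) and Ago1 (0.21 ± 0.05). The count of 9 was 4 without Db replicate 3 of NOD.LCMV.

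**Figure D5:**
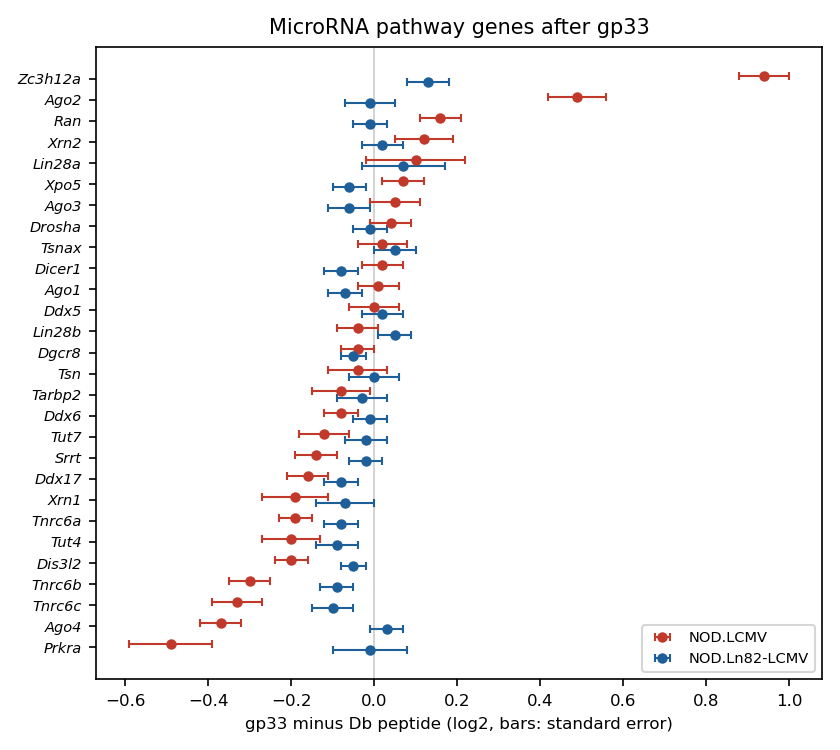
Difference between gp33 and Db peptide (log2, bars for the standard error) for 28 genes of microRNA production and action, in NOD.LCMV (red) and NOD.Ln82-LCMV (blue). Zc3h12a and Ago2 lie highest in NOD.LCMV and Ago4 and Prkra lowest, while all 28 values of NOD.Ln82-LCMV lie between -0.10 and 0.13.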

How the data were processed

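The authors deposited log2 values of 35556 probe sets for 15 arrays, made by RMA in Affymetrix Expression Console 1.1 per the submitters' processing notes. No further normalization was applied. The platform annotation gave exactly 1 symbol for 21789 probe sets, which left 19938 genes by the highest mean. A further 61 probe sets that carry a microRNA symbol beside others were left out. The build of that annotation is not given in the sources used here. Chromosomes, hosts, clusters (10 kb) and sequences came from RefSeq tables (GRCm38.p6).

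A linear model with 4 group means was fitted to all arrays in limma 3.58.1 under R 4.3.3. Variances were moderated by eBayes, for 14.9 degrees of freedom in all, 11 of them residual. Intervals are 95% intervals from the moderated standard error. For strain differences, NOD.Ln82-LCMV is subtracted from NOD.LCMV. The model was tested on simulated data. The microRNA genes and lists were chosen with earlier results of these data known. Genes were named by size of called change (up to 12 each way per comparison), by family, by mean level, or as well-known T-cell microRNAs. Alternatives changed the normalization (quantile once more, or centring on array medians), filtered dim genes, averaged probe sets, added a variance trend, weighted arrays, fitted the compared groups alone, used a replicate block, or left out each array.

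Titles number the NOD.Ln82-LCMV mice within each group. The NOD.LCMV titles give an unlike number for each mouse, so their replicates 1 to 3 are numbered in deposit order and pair nothing. Deviations of same-numbered mice from their group means correlated at 0.117, 0.008, -0.050 and -0.226 (numbers 1 to 4). These values gave no sign of pairing by number, and so few cannot exclude it.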

Additional observations from a re-analysis of the deposited data

Results flagged for a closer look

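In groups of 4 or 5 mice, a single array stood apart from the others in 11 of 118 tests over 59 named genes. Chance gives about 1 in 20 for a single test, but the tests share the same arrays, so the count cannot be set against chance. The gap to the nearest array, as a share of the group's range, is given for each, and a large share can be a small gap in log2. Among NOD.Ln82-LCMV mice with gp33, replicate 5 was the high array for Mir122 (6.13, share 0.83), Mir132 (6.31, share 0.75), Mir24-2 (7.75, share 0.818), Mir31 (6.37, share 0.788) and Mir680-3 (9.70, share 0.75), and the low array for Mir15b (5.53, share 0.773). This array also had the lowest weight, 0.282, when arrays were weighted by their fit. In the same group, replicate 4 was high for Mir687 (8.24, share 0.796) and replicate 2 low for Mir146 (4.60, share 0.8, the others 4.64 to 4.65). Among NOD.Ln82-LCMV mice with the Db peptide, replicate 4 was high for Mir150 (8.36, share 0.867) and replicate 2 low for Mir31 (6.05, share 0.833). There, replicate 3 was low for Mirlet7g (5.63, share 1.0, the others all 5.76).

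The response to gp33 differed between the strains, by limma's test of that difference, in 20 named genes, each time greater in NOD.LCMV. The differences on the log2 scale were 2.30 for Mir155, 2.15 for Mir142, 2.03 for Mir18, 1.74 for Mir181a-1, 1.66 for Mir19a, 1.38 for Mir15b, 1.32 for Mir19b-1, 1.11 for Mir145a and 0.82 for Mir181b-1. They were 0.70 for Mir30e, 0.66 for Mir143, 0.61 for Mir17hg, 0.59 for Mirlet7d, 0.57 for Mir20a, 0.56 for Mir98, 0.55 for Mir16-1, 0.53 for Mir16-2, 0.50 for Mir350, 0.36 for Mirlet7f-1 and 0.23 for Mir221. Leaving out 1 NOD.LCMV array ended the call for 5 of these: Mirlet7d (Db replicate 1 or 3, or gp33 replicate 2), Mirlet7f-1 and Mir221 (Db replicate 1 or 2, or gp33 replicate 1 or 2), Mir350 (Db replicate 2 or 3, or gp33 replicate 3) and Mir181b-1 (Db replicate 3 or gp33 replicate 1).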

How the results depend on the processing

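No called value of a named gene changed direction under the alternatives run. Without the dimmest 33% of genes, which leaves fewer genes to test (99 of the 300 and 13295 in all), 12 microRNA genes were called in the NOD.LCMV response, 12 in the difference between responses, 13 between strains with the Db peptide and 31 with gp33. A variance trend and array weights each called 1 microRNA gene in NOD.Ln82-LCMV with gp33, lower, where limma otherwise called 0. Array weights called 61 between strains with the Db peptide. With the replicate block, 6 were called in that comparison, against 24, and 25, 0, 23 and 51 in the NOD.LCMV response, the NOD.Ln82-LCMV response, the difference between responses and the strain difference with gp33. In the block fit, strain comparisons set NOD.LCMV against the level of NOD.Ln82-LCMV replicate 1, not against the group mean. Its counts and lost calls between strains, here and below, thus rest on another comparison than the main fit. They do not measure how pairing affects the main fit. The causes of the other changes were not tested. With each array left out in turn, the counts were 15 to 25 for the NOD.LCMV response, 0 to 0 for NOD.Ln82-LCMV, 18 to 25 for the difference between responses, 14 to 31 between strains with the Db peptide, 53 to 86 with gp33, and, of the 28 pathway genes, 8 to 11 in NOD.LCMV, 3 to 7 for the difference between responses, 4 to 10 between strains with the Db peptide and 10 to 12 with gp33. Of the pathway genes, array weights called 14 and the replicate block 1 between strains with the Db peptide, against 9. They were 8 under array weights for the difference between responses, against 4, and 7 under the block between strains with gp33, against 12. Of the values of single named genes, 24 became called under array weights and 20 lost the call under the replicate block. Same-numbered NOD.Ln82-LCMV mice were the best partner of each other in 0 of 4 numbers, and the NOD.LCMV titles carry numbers that differ between all 6 mice, so the block was set in NOD.Ln82-LCMV alone. Low signal, with 201 of 300 genes below 6.92, and groups of 3 to 5 mice limit what could be seen.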

Other observations

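Among the 10 brightest microRNA genes, Mir346 averaged 9.90 and 9.91 in NOD.LCMV with gp33 and with the Db peptide, and 9.71 and 9.77 in NOD.Ln82-LCMV. Mir667 averaged 9.64, 9.66, 9.62 and 9.58 in the same order. Neither was called in any comparison. A further bright gene, Mir7-1, was 0.25 ± 0.07 log2 higher in NOD.LCMV than in NOD.Ln82-LCMV with gp33 (limma adjusted p = 0.0183), a call lost without gp33 replicate 3 of NOD.LCMV. Array signals of different genes do not rank their RNA.

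MicroRNA genes known from liver, brain, muscle and red cells had array means below the dim limit of 6.92. The mean of 5 liver and brain genes was between 5.90 and 6.20 on all arrays, that of 7 muscle genes between 4.82 and 4.93, and that of Mir144 and Mir451a, known from red cells, between 4.86 and 4.93. None of these microRNA genes was called in any comparison. The liver and brain genes, which thymus should lack, had gene means from 5.64 to 6.65, against a median of 5.91 over all microRNA genes. Signals in that range therefore do not separate a present microRNA gene from one presumed absent. The red cell pair is not taken as absent, since the red cell messenger RNAs Alas2 and Slc4a1 had gene means between 7.66 and 8.26.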
